A study of Mus musculus with 2 samples.

Results

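The endothelin system was followed through 7 genes in single-cell RNA sequencing (scRNA-seq) of the mouse cerebral cortex: the ligand genes *Edn1* and *Edn3*, the receptor genes *Ednra* and *Ednrb*, the converting enzyme genes *Ece1* and *Ece2*, and *Ecel1*, an enzyme gene of the same family. They were taken by symbol, each symbol matched 1 gene, and they were 7 of the 55450 genes counted. Each of the 2 droplet libraries came from C57BL/6 mice, 1 labelled Control and 1 labelled WMI, for cerebral white matter injury. The sample labels describe ligation of the right common carotid artery at postnatal day 7 under 1 h of hypoxia, and collection at postnatal day 14 (2 weeks of age) of the ligated cortex of the injured mice and of the cortex of the same side in control mice. The labels carry that treatment text for both libraries, mention nuclei, and do not say how many mice a library pooled, and the paper gives earlier days, a longer hypoxia and dissociated cells. With 1 library per group there was no replicate check and no test was made: every interval given is an exact 95% interval that covers counting error only, and differences between mice, sexes and preparations cannot be told apart from the injury.

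Endothelins are short peptides cut from longer precursors. A furin-like protease first releases big endothelin, and an endothelin-converting enzyme then trims it to the active peptide, which acts on receptors coupled to G proteins. The A receptor, encoded by *Ednra*, is best known from the contraction of vascular smooth muscle and binds endothelin-1 much better than endothelin-3, whereas the B receptor, encoded by *Ednrb*, binds both about equally and is known in the brain from astrocytes and oligodendrocyte (OL) progenitors. Blood vessel endothelium is the classical source of endothelin-1.

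After filtering, 8755 Control and 7571 WMI cells were kept, with a median of 4775 and 5322 unique molecular identifiers (UMIs, each 1 captured RNA molecule) per cell. They fell into 35 clusters, of which 31 were named "-like" from marker genes, and these names stand only for marker profiles. The 4 unnamed clusters held 3385 Control and 923 WMI cells. Their Control cells lay mostly in clusters 0 and 2 (2267 and 1110) and their WMI cells mostly in clusters 5 and 30 (774 and 90). A ratio over the unnamed clusters thus compares mostly different clusters. The astrocyte, OL progenitor (OPC), premyelinating OL (pre-OL) and mature OL clusters each counted 8 of 8 markers. Most microglia-like cells came from different clusters in the 2 libraries (cluster 11 in Control, clusters 3 and 18 in WMI). The libraries also differed in sex-linked genes: 0 Control but 2183 WMI cells had *Xist* and no Y-linked UMI. A Y-linked UMI and no *Xist* was found in 6600 Control and 2012 WMI cells, so that WMI held cells of both kinds. Mitochondrial UMIs had a median share of 0.0579% in Control and 0.451% in WMI cells, and 26 barcodes were kept in both libraries.

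Levels are given in CPM, the UMIs of a gene per 1000000 UMIs of the same cells. Because the protocol counts RNA and not protein, and because UMIs of different genes are not captured alike, levels were compared between cells and not between genes. A gene was called past the fold limit in a class when its level differed at least 2-fold either way between the libraries and it had at least 50 UMIs over both. Over all kept cells, 6 of the 7 genes had enough UMIs and 2 of them, *Ednra* and *Ecel1*, were past it, both higher in WMI, against 9.67% of the 20047 genes so judged. *Ednra* had 192 UMIs in Control and 426 in WMI, a log2 ratio of 1.25 (interval 1.00 to 1.51), and *Ecel1* had 20 and 95, a log2 ratio of 2.35 (1.65 to 3.13). *Ednrb* stood at 14.9 in Control and 22.9 CPM in WMI (899 and 1286 UMIs, log2 0.62, interval 0.50 to 0.75), and *Ece1* at 68.1 and 56.4 (4105 and 3165 UMIs, log2 -0.27, -0.34 to -0.20). *Ece2* stood at 10.8 and 13.5 (652 and 758 UMIs, log2 0.32, 0.17 to 0.47). The ligands had the fewest UMIs over both libraries: *Edn1* had 40 and 32 UMIs and *Edn3* 14 and 17, and for both the interval of the ratio included no difference. When the WMI class levels were weighted by the Control makeup of classes, the ratio of *Ednra* was 1.02 and that of *Ecel1* 2.34, while that of *Ednrb* was 0.48. This weighting took the unnamed clusters as a class and did not weight clusters within a class. Differences in clusters between the libraries, as in the unnamed set, therefore remained in these ratios. Within the named classes, the limit was passed by 1 of 4 members judged in astrocyte-like cells (7.04% of all genes judged there) and by none of those judged in OPC-like (0 of 3, 2.85%), pre-OL-like (0 of 3, 4.34%), microglia-like (0 of 2, 9.7%) or vascular and fibroblast cells (0 of 2, 4.75%), in excitatory neurons (0 of 4, 6.23%) or in inhibitory neurons (0 of 3, 3.07%). In striatal projection neuron-like cells 1 member was judged, *Ece1*, which did not pass (0 of 1, 25.5%). In the unnamed clusters, which are no class and mostly differed between the libraries, *Ece2* had 62 UMIs in Control and 34 in WMI. Its levels there were 6.70 and 13.7 CPM, a 2.04-fold ratio (1.30 to 3.16).

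**Figure D1:**
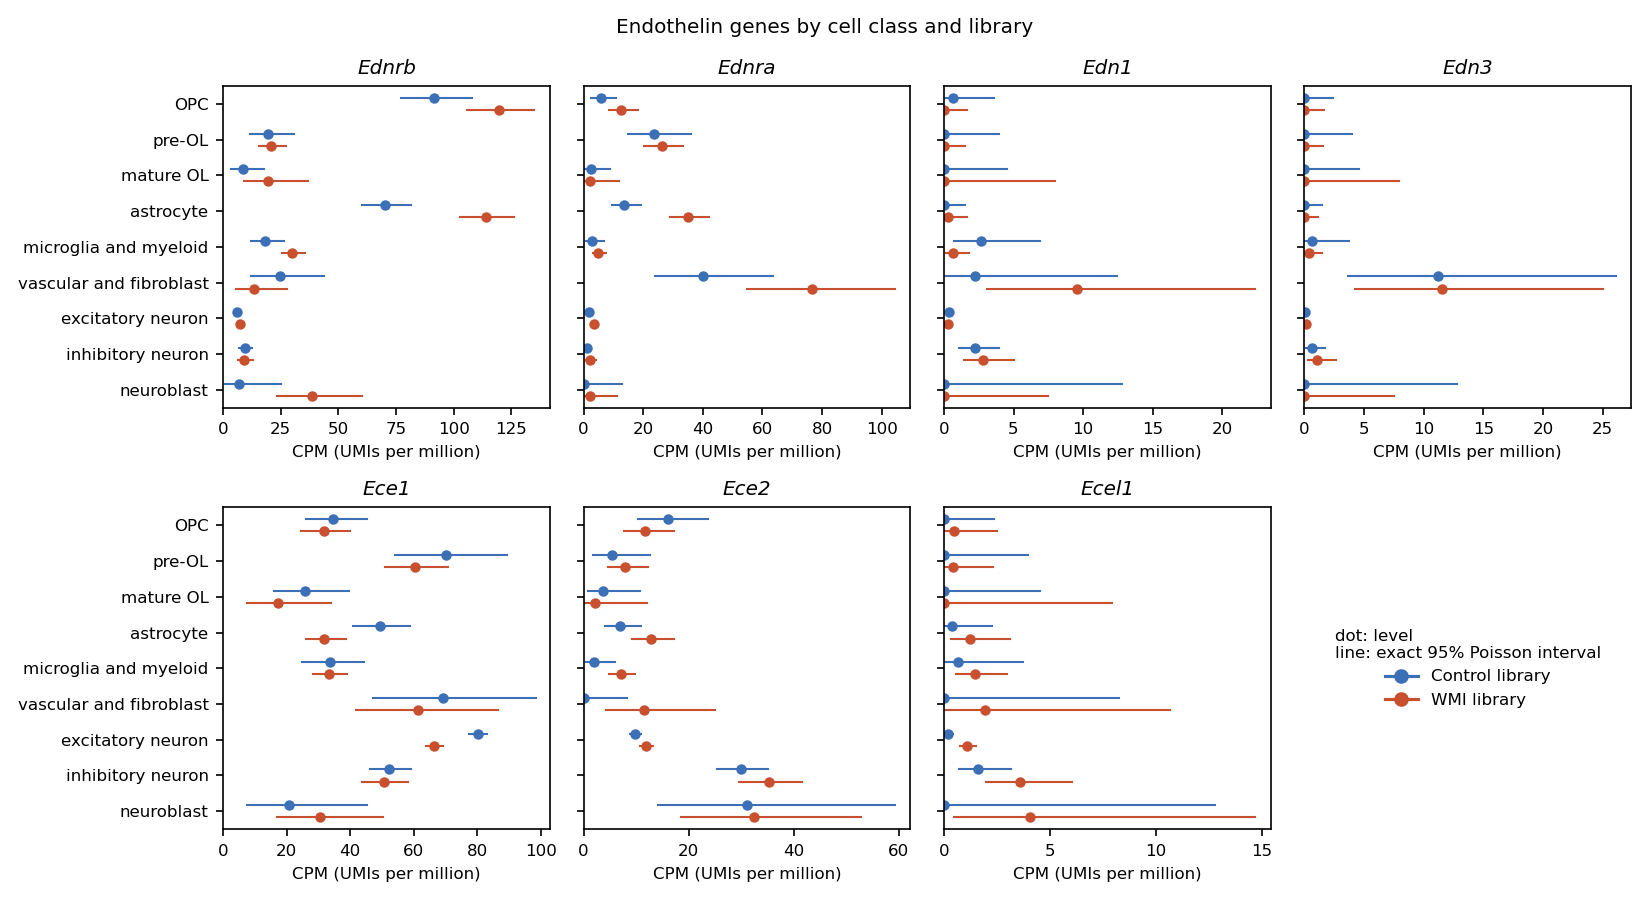
Level of each of the 7 genes (x axis, CPM, linear and with its own scale in each panel) in 9 cell classes (y axis) of the Control and the WMI library; dots are levels and lines exact 95% Poisson intervals. *Ednrb* stood highest in OPC-like (91.7 and 119.7) and astrocyte-like cells (70.2 and 114.2), *Edn3* in the vascular and fibroblast class (11.2 and 11.5) and *Ece2* in inhibitory neurons (29.97 and 35.3) and neuroblast-like cells (31.2 and 32.5) among the classes plotted.

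*Edn1* encodes the precursor of endothelin-1 and lies on the plus strand of chromosome 13, positions 42301476 to 42307990 of GRCm38, the build used for every position here. It was found in 64 of 16326 cells, with 72 UMIs in all. By level it stood highest in the endothelial-like cells, which line vessels: 12.2 CPM in Control (1 UMI in 21 cells) and 68.3 in WMI (5 UMIs in 16 cells, interval 22.2 to 159.4). These 6 UMIs lay in 3 cells, and 1 cell held 3 of them. The ratio of the 2 endothelial levels was not read, since it rested on 1 and 5 UMIs. Pericyte-like and fibroblast-like cells held no *Edn1* UMI, and 3 UMIs would have given 51.0 and 3.97 CPM over both libraries.

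By number, 24 of the 72 *Edn1* UMIs lay in excitatory neurons (33.3%, against 61.2% of all UMIs) and 22 in inhibitory neurons (30.6%, against 7.64%). Inhibitory neurons held 11 of 40 in Control (27.5%, Clopper-Pearson interval 14.6 to 43.9%) and 11 of 32 in WMI (34.4%, 18.6 to 53.2%), while they held 8.30% and 6.93% of all UMIs. Within them the UMIs were gathered in 1 subtype, *Lhx6* interneurons without *Sst*, the group that includes fast-spiking basket cells, at 4.30 CPM in Control (10 UMIs in 10 of 211 cells, 2.06 to 7.92) and 7.21 in WMI (10 UMIs in 9 of 126 cells, 3.46 to 13.3). *Sst* interneurons held 0 and 1 UMI and *Adarb2* interneurons 1 and 0. Upper-layer excitatory neurons held none in 813 and 634 cells, which allows up to 0.302 and 0.4003 CPM with 3 UMIs. Both limits lay below the lower bounds of the *Lhx6* interneuron levels. OL-lineage cells, taken as the class that should lack *Edn1*, held 1 UMI in 1466 cells.

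In excitatory neurons *Edn1* had 13 UMIs in 11 of 3285 Control cells and 11 UMIs in 10 of 2805 WMI cells, or 0.344 and 0.329 CPM. Cluster 12, an excitatory cluster led by *Il1rapl2*, *Rxfp2* and *Scube1*, held 4 and 3 of these. Microglia-like cells held 4 and 3 UMIs, or 2.69 CPM in Control (0.73 to 6.89) and 0.62 in WMI (0.13 to 1.82). In Control this interval overlapped that of the *Lhx6* interneurons without *Sst*, and in WMI it lay below theirs. Astrocyte-like cells held 0 and 1 UMI in 471 and 607 cells. The unnamed clusters, mostly different ones in the 2 libraries, held 10 *Edn1* UMIs in Control and 0 in WMI. The barcodes under 1000 UMIs held none in either library, with upper interval bounds of 6.80 CPM in Control and 25.2 in WMI. These bounds lay above the levels of the *Lhx6* interneurons without *Sst* in the same library. After thinning every cell to 1000 UMIs, *Edn1* was left in 1.42% of Control and 0.794% of WMI *Lhx6* interneurons and in 0 OL-lineage cells of either library. The thinned shares rested on very few cells and on a random draw made once, and the difference between the libraries was not read. The unthinned shares were 4.74% and 7.14% in these interneurons, at median depths of 10329 and 9025 UMIs, against 0.191% and 0% in the OL lineage at 5746.5 and 4648.5.

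*Edn3* (chromosome 2, 174760619 to 174784042, plus strand) encodes the precursor of endothelin-3, the ligand best known from neural crest development. It had 31 UMIs in 28 cells. Fibroblast-like cells, the connective tissue cells of the meninges and vessel walls, held 5 of the 14 Control UMIs in 3 of 56 cells and 6 of the 17 WMI UMIs in 6 of 77 cells. Their levels, 14.0 (4.54 to 32.6) and 15.1 CPM (5.54 to 32.9), differed by less than the counting error. *Adarb2* interneurons held 2 and 3 UMIs, and excitatory neurons 3 and 4. OL-lineage and astrocyte-like cells held none in either library, and 3 UMIs over both libraries would have given 0.358 and 0.520 CPM. Microglia-like cells held 3 UMIs, or 0.475 CPM, which is the background level for this gene. The third ligand gene, *Edn2*, had 1 UMI in each library.

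**Figure D2:**
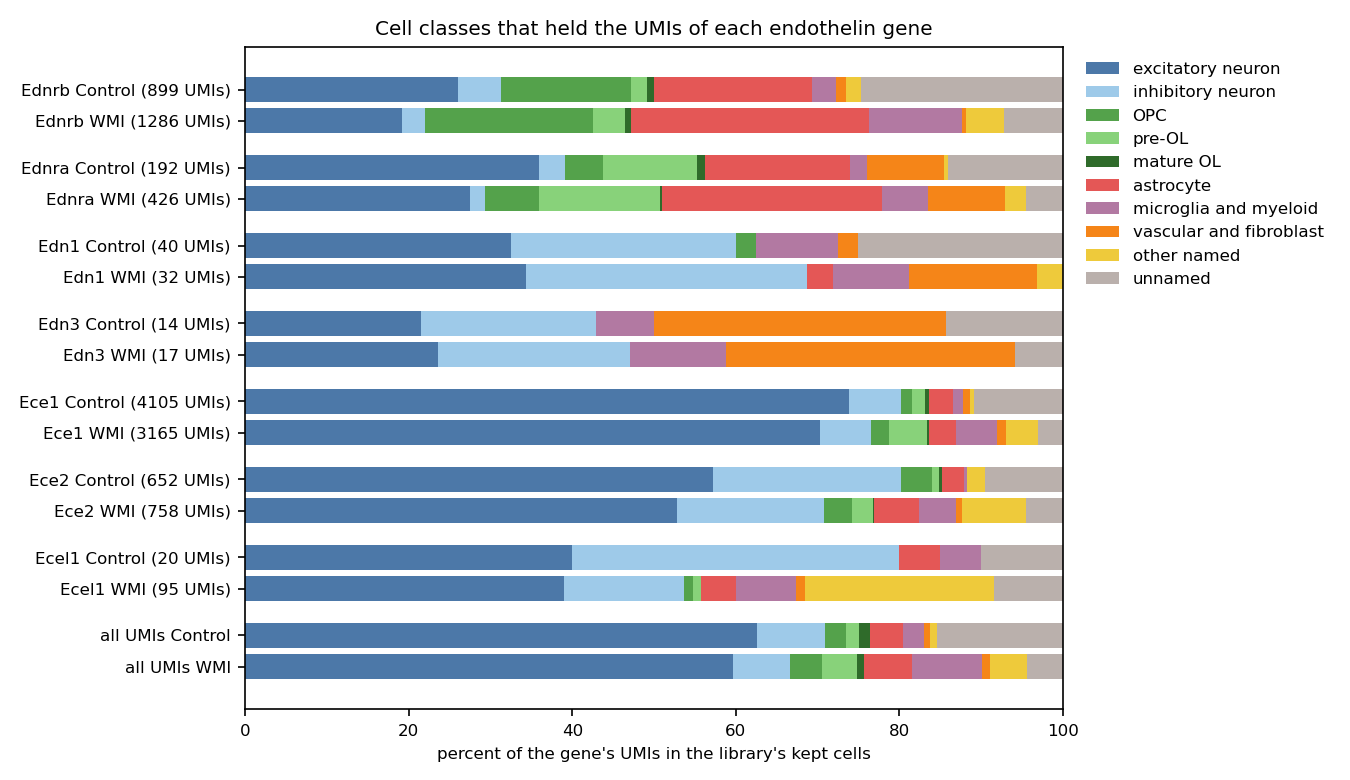
Share of the UMIs of each gene (x axis, percent) that each cell class held in each library (y axis, with the gene's UMIs), with the share of all UMIs in the bottom pair of bars; a class holds its gene beyond its size where its colour is wider than in that pair. Astrocyte-like cells held 4.11% and 5.87% of all UMIs but 19.4% and 29.2% of those of *Ednrb*, and the vascular and fibroblast class held 0.742% and 0.930% of all UMIs but 35.7% and 35.3% of those of *Edn3*.

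*Ednrb*, the B receptor gene, lies on the minus strand of chromosome 14 (103814625 to 103844402), and its highest class levels were those of OPC-like and astrocyte-like cells. OPC-like cells, the progenitors of the OL lineage, held 143 UMIs in 281 cells of Control and 265 in 454 of WMI, 91.7 CPM (77.3 to 108) and 119.7 (105.8 to 135.1). Astrocyte-like cells held 174 UMIs in 471 and 376 in 607 cells, 70.2 (60.2 to 81.5) and 114.2 (103.0 to 126.4). The OPC-like level was 1.31-fold the astrocyte level in Control (1.04 to 1.64) and 1.05-fold in WMI (0.892 to 1.23), so that these classes were neighbours in the order and in WMI did not differ beyond counting error. The unnamed clusters stood at 23.98 and 37.4 CPM and held 24.7% and 7.23% of the *Ednrb* UMIs, against 15.4% and 4.43% of all UMIs. Excitatory neurons held 26.0% and 19.1% of them, against 62.6% and 59.7% of all UMIs.

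Within the OL lineage the level was higher in OPC-like cells than in the later stages. Pre-OL-like cells, which carry *Bcas1* and *Enpp6*, stood at 19.4 CPM in Control (18 UMIs) and 20.8 in WMI (50 UMIs), so that OPC-like cells were 4.73-fold higher in Control (2.89 to 8.21) and 5.76-fold in WMI (4.24 to 7.96). Mature OL-like cells held 7 and 9 UMIs, 8.63 and 19.4 CPM, and neither library separated them from pre-OL-like cells beyond counting error. Cycling cells, a cluster led by *Top2a* that was not assigned to a lineage, stood at 66.8 (13 UMIs) and 62.2 (30 UMIs). In Control they did not differ beyond counting error from OPC-like (0.729-fold, 0.379 to 1.29) or astrocyte-like cells (0.952-fold, 0.497 to 1.67), and in WMI they were lower than both (0.520-fold, 0.344 to 0.760, and 0.545-fold, 0.362 to 0.791).

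Microglia-like cells, chosen as the class that should lack *Ednrb*, stood at 18.2 (11.98 to 26.4) and 30.1 CPM (25.4 to 35.4). The pre-OL and mature OL levels did not exceed that background beyond counting error in either library, and those of excitatory neurons (6.20 and 7.35) and inhibitory neurons (9.39 and 9.26) lay below it. Thinned to 1000 UMIs per cell, 9.61% of Control and 12.1% of WMI OPC-like cells and 6.58% and 9.23% of astrocyte-like cells kept an *Ednrb* UMI, against 1.87% and 3.39% of microglia-like cells. The unthinned shares were 37.7% and 37.0% in OPC-like, 26.1% and 36.7% in astrocyte-like and 5.36% and 9.19% in microglia-like cells, at median depths of 5153 and 4402.5, 4930 and 4923, and 3209 and 2943.5 UMIs. Fibroblast-like cells were at 16.8 and 17.6 CPM (6 and 7 UMIs). Endothelial-like cells had 5 Control UMIs (60.8 CPM, 19.7 to 141.8) and none in WMI, where 3 would have given 41.0, and pericyte-like cells had none in 15 cells.

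Between the libraries, *Ednrb* did not pass the 2-fold limit in any class judged. In OPC-like cells the log2 ratio of WMI to Control was 0.39 (0.09 to 0.69) and in astrocyte-like cells 0.70 (0.44 to 0.97). In microglia-like cells, the background class, it was 0.73 (0.13 to 1.38), and in the barcodes with under 1000 UMIs the level was 11.1 in Control (6 UMIs) and 20.5 in WMI (3 UMIs). The part of this background in the OPC and astrocyte ratios was not tested. Among microglia-like cells without *Xist* and with a Y-linked UMI the log2 ratio was -0.02 (-0.87 to 0.84), an interval that included the 0.73 of all microglia-like cells. With WMI cluster levels weighted by the Control clusters, it was 0.35 in microglia-like and 0.79 in astrocyte-like cells. Neuroblast-like cells, young neurons marked by *Igfbpl1* and *Dlx6os1*, held 2 *Ednrb* UMIs in 56 cells of Control and 19 in 130 of WMI. Their level was 5.57-fold higher in WMI (1.34 to 49.3), a log2 ratio of 2.48, on fewer UMIs than the 50 set for the limit.

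The astrocyte-like cells came from a pair of clusters that each counted all the markers. Cluster 7 (386 Control and 336 WMI cells), led by *Nhsl1*, *Gli3* and *Slco1c1*, stood at 67.0 in Control and 126.0 *Ednrb* CPM in WMI, a log2 ratio of 0.91 (0.61 to 1.22). Cluster 15, led by *Gfap*, the filament gene of fibrous and reactive astrocytes, and by *A2m*, held 85 Control and 271 WMI cells, and its level was 88.8 in Control and 96.4 in WMI, a ratio of 0.12 (-0.44 to 0.72). In Control, cluster 15 was 1.33-fold cluster 7 (0.878 to 1.95), and in WMI 0.765-fold (0.613 to 0.952). The difference between the 2 ratios was not tested.

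*Ednra*, the A receptor gene (chromosome 8, 77663031 to 77724464, minus strand), stood highest in pericyte-like cells, the contractile cells that wrap capillaries. They held 6 UMIs in 2 cells of Control and 27 in 13 of WMI, 796.8 CPM (292.4 to 1734) and 526.2 (346.7 to 765.5), and 13 of the 15 cells had at least 1 UMI. No smooth muscle cluster was found, and the pericyte-like cells counted 0 of the smooth muscle and 8 of 8 pericyte markers. Fibroblast-like cells stood at 33.5 (12 UMIs) and 32.7 (13 UMIs), 0.042-fold and 0.062-fold the pericyte level, and endothelial-like cells had no UMI in 37 cells, where 3 would have given 19.3 CPM. Endothelial-like cells, where *Edn1* stood highest, and pericyte-like cells, where *Ednra* did, are adjacent layers of the vessel wall, and only 37 and 15 of them were found.

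**Figure D3:**
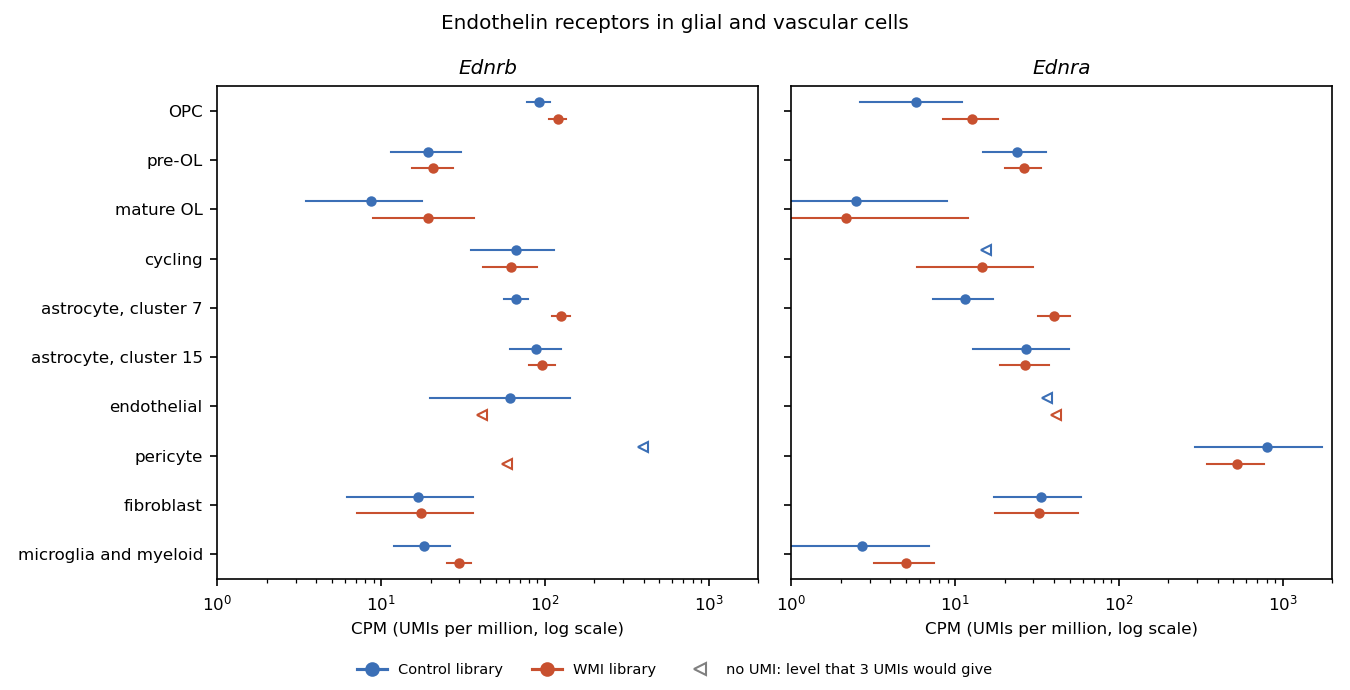
Levels of both receptor genes (x axis, CPM, log scale) in glial and vascular cells of the Control and the WMI library, with exact 95% Poisson intervals as lines and open triangles at the level of 3 UMIs where none was found. *Ednra* peaked in pericyte-like cells (796.8 and 526.2) while *Ednrb* was not found there, and in astrocyte-like cells it stood at 11.4 and 40.3 in cluster 7 and at 26.9 and 26.8 (10 and 35 UMIs) in cluster 15, a difference between clusters that was not tested.

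In the OL lineage *Ednra* followed another order than *Ednrb*. Pre-OL-like cells were highest, at 23.7 CPM in Control (22 UMIs, 14.8 to 35.9) and 26.2 in WMI (63 UMIs, 20.1 to 33.5). OPC-like cells stood at 5.77 (9 UMIs) and 12.7 (28 UMIs), so that pre-OL-like cells were 4.11-fold higher in Control (1.82 to 10.1) and 2.07-fold in WMI (1.31 to 3.36). Mature OL-like cells had 2 and 1 UMIs. The microglia-like background was 2.69 (4 UMIs) and 4.97 CPM (24 UMIs), and pre-OL-like cells lay 8.80-fold and 5.27-fold above it. The barcodes under 1000 UMIs stood at 5.53 CPM in Control (3 UMIs, 1.14 to 16.2) and 6.83 in WMI (1 UMI, 0.17 to 38.0). After thinning, 3.97% of Control and 3.64% of WMI pre-OL-like cells kept a UMI, against 0.466% and 0.424% of microglia-like cells, and without thinning 11.9% and 12.5% against 0.932% and 1.63%. Between the libraries the pre-OL ratio was 0.14 on the log2 scale (-0.58 to 0.92).

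*Ednra* was the 1 member past the 2-fold limit in astrocyte-like cells. It stood at 13.7 CPM in Control (34 UMIs, 9.51 to 19.2) and 34.9 in WMI (115 UMIs, 28.8 to 41.9), a log2 ratio of 1.35 (0.78 to 1.94), beside a median of 0.11 over all genes judged in these cells. Cluster 7 had 11.4 (24 UMIs) and 40.3 (80 UMIs), a log2 ratio of 1.82 (1.15 to 2.55), and cluster 15 had 26.9 (10 UMIs) and 26.8 (35 UMIs), a ratio of -0.01 (-1.05 to 1.17), and the difference between these ratios was not tested either. The share of astrocyte-like cells with a UMI was 5.94% and 14.5%, and 1.06% (0.346 to 2.46%) and 2.80% (1.64 to 4.45%) after thinning, so that the thinned shares were not separated by their intervals. Positive ratios were also found elsewhere, and excitatory neurons had a log2 ratio of 0.94 (0.49 to 1.39) on 69 and 117 UMIs. On fewer UMIs than the 50 set for the limit, the log2 ratio was 0.89 (-0.66 to 2.87) in the microglia-like background and 1.13 (0.01 to 2.40) in OPC-like cells. It was 1.39 (0.46 to 2.29) in the unnamed clusters, also on fewer than 50 UMIs and mostly from different clusters in the 2 libraries. The part of the background in the astrocyte ratio was not tested. Over the 11 alternative settings the astrocyte ratio lay between 1.23 and 1.52. The vascular and fibroblast class had a log2 ratio of 0.93 (0.09 to 1.82), with 2 pericyte-like cells in Control and 13 in WMI, and pericyte-like and fibroblast-like cells had ratios of -0.60 (-1.90 to 0.97) and -0.04 (-1.29 to 1.23) when taken apart.

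**Figure D4:**
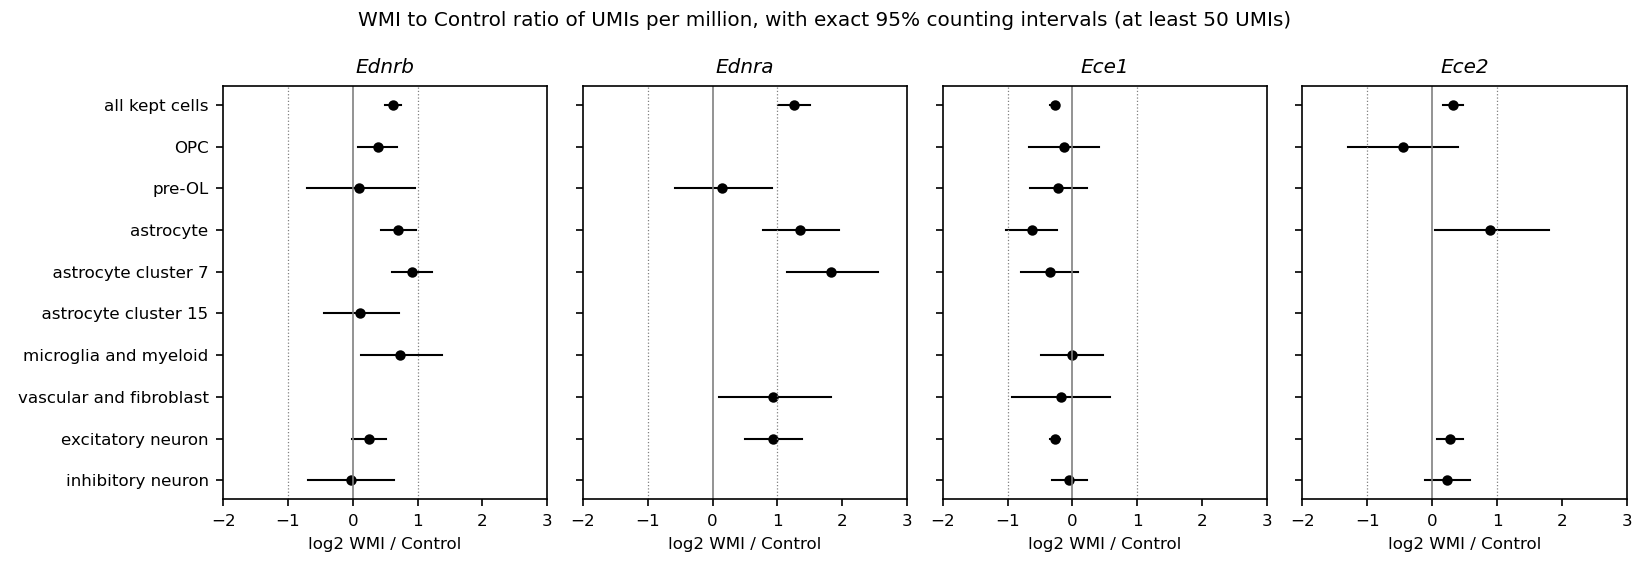
Log2 ratio of WMI to Control levels (x axis, dotted lines at 2-fold) of 4 genes in the classes and astrocyte-like clusters with at least 50 UMIs (y axis), with exact 95% counting intervals as lines. *Ednra* in astrocyte-like cells (1.35) and in their cluster 7 (1.82), and over all kept cells (1.25), lay past 2-fold, and no plotted *Ednrb*, *Ece1* or *Ece2* value did. The unnamed clusters and striatal projection neuron-like cells are not plotted.

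Neurons held little *Ednra* per UMI. Excitatory neurons stood at 1.83 CPM in Control (69 UMIs) and 3.49 in WMI (117 UMIs), which did not differ beyond counting error from the microglia-like background of the same library, and their log2 ratio was 0.94 (0.49 to 1.39). Layer 5 neurons with *Fezf2* and *Bcl11b*, which project below the cortex, stood at 8.27 in both libraries (17 and 13 UMIs), 6.85-fold (3.08 to 15.7) and 2.21-fold (1.05 to 4.42) above upper-layer neurons. The 17 Control UMIs of this subtype lay in 8 cells, 1 of which held 5. Upper-layer neurons stood at 1.21 (12 UMIs) and 3.74 (28 UMIs), 3.09-fold higher in WMI (1.52 to 6.68), and layer 4 neurons at 1.75 (14 UMIs) and 5.03 (21 UMIs), 2.88-fold higher (1.40 to 6.12), both on fewer than 50 UMIs.

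Cells with UMIs of both receptors were few. Among astrocyte-like cells, 12 of 471 in Control (2.55%, 1.32 to 4.41%) and 34 of 607 in WMI (5.60%, 3.91 to 7.74%) had both, where independent detection would give 7.31 and 32.3 cells. OPC-like cells with both numbered 3 and 9, against 3.40 and 9.62, and pre-OL-like cells 1 and 11, against 1.55 and 5.62. The astrocyte-like cells with both were deeper, with medians of 6148.5 and 6284 UMIs against 4930 and 4923 for their class, and the part of depth in these counts was not tested.

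*Ece1* (chromosome 4, 137862237 to 137965229, plus strand) encodes the main enzyme that converts big endothelin-1. It was found in every named class, and 73.9% of its Control and 70.3% of its WMI UMIs lay in excitatory neurons, which held 62.6% and 59.7% of all UMIs. Across the excitatory subtypes, layer 4 neurons, which receive thalamic input, stood highest at 104.6 (97.7 to 111.9) and 104.9 CPM (95.3 to 115.2), followed by upper-layer neurons at 87.9 and 83.7. Layer 4 was above upper-layer neurons by 1.19-fold in Control (1.08 to 1.31) and 1.25-fold in WMI (1.11 to 1.42). Layer 6 corticothalamic neurons stood at 68.9 and 54.4 and layer 5 *Fezf2* *Bcl11b* neurons at 63.2 and 57.9, neighbours that did not separate, and near-projecting neurons at 44.6 and 41.5. Inhibitory neurons stood at 52.3 and 50.7, 0.652-fold (0.573 to 0.740) and 0.763-fold (0.656 to 0.882) the excitatory level, with their 3 subtypes between 43.4 and 55.9. Striatal projection neuron-like cells stood at 124.6 in Control on 5 UMIs (40.5 to 290.7) and at 63.6 in WMI (90 UMIs).

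In the OL lineage, *Ece1* was highest in pre-OL-like cells, at 70.0 CPM in Control (65 UMIs, 54.04 to 89.2) and 60.3 in WMI (145 UMIs, 50.9 to 70.9). OPC-like cells stood at 34.6 and 31.6, and mature OL-like cells at 25.9 (21 UMIs) and 17.2 (8 UMIs). Pre-OL-like cells were thus 2.02-fold (1.39 to 2.96) and 1.91-fold (1.42 to 2.57) above OPC-like cells and 2.70-fold and 3.50-fold above mature OL-like cells. The same stage had the highest *Ednra* level of the lineage. Pericyte-like cells held 6 *Ece1* UMIs, 1 in Control (132.8 CPM) and 5 in WMI (97.4 CPM), too few to place them in the order. Endothelial-like cells held 10 (64.3 CPM over both libraries) and fibroblast-like cells 47 (62.2), and microglia-like cells stood at 33.7 and 33.4. No class was taken as lacking *Ece1*, and the barcodes under 1000 UMIs had 90.3 CPM in Control and 54.6 in WMI. What these barcodes held, and their part in the levels above, was not tested.

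No class passed the 2-fold limit for *Ece1*. In astrocyte-like cells it was lower in WMI, at 49.3 CPM in Control (122 UMIs) and 31.9 in WMI (105 UMIs), a log2 ratio of -0.63 (-1.02 to -0.24). The ratio was -0.34 (-0.79 to 0.09) in cluster 7. Cluster 15 stood at 45.7 (17 UMIs) and 20.7 (27 UMIs), a log2 ratio of -1.15 (-2.07 to -0.18) on fewer UMIs than the 50 set for the limit. In excitatory neurons the ratio was -0.27 (-0.35 to -0.19). Cluster 8, an excitatory cluster led by *Gm32647*, *B130024G19Rik* and *Cpne7*, had 142 Control but 572 WMI cells and a low level, 59.9 and 42.0. With each cluster given its Control weight, the excitatory ratio was -0.11. Taken apart, the ratio was 0.00 (-0.17 to 0.17) in layer 4 and -0.07 (-0.22 to 0.08) in upper-layer neurons. It was -0.34 (-0.68 to -0.01) in layer 6 corticothalamic neurons and -0.51 (-0.85 to -0.17) in cluster 8. In the other excitatory subtypes and clusters the interval included no difference. The part of cluster makeup in the excitatory ratio was not tested.

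*Ece2* encodes a neuronal relative of *Ece1* that works at acidic pH and also processes neuropeptides. Its reads may be shared with *Gm49333*, which overlaps it on the same strand of chromosome 16 (positions 20611610 to 20645920, against 20629828 to 20646485 for *Ece2*) and had 568 UMIs beside 1410 of *Ece2*, so that its levels are uncertain. Inhibitory neurons were above excitatory neurons, at 29.97 (150 UMIs) and 35.3 CPM (137 UMIs) against 9.88 (373 UMIs) and 11.9 (400 UMIs), 3.03-fold in Control (2.49 to 3.68) and 2.95-fold in WMI (2.41 to 3.59). Over both libraries *Gm49333* stood at 9.45 in inhibitory and 5.01 in excitatory neurons.

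Among inhibitory subtypes, *Sst* interneurons, which make the peptide somatostatin, stood at 39.6 (29.8 to 51.7) and 42.3 (29.8 to 58.3). *Lhx6* interneurons without *Sst* were at 26.7 and 37.5 and *Adarb2* interneurons at 25.8 and 29.5. In Control *Sst* interneurons were 1.49-fold above the *Lhx6* subtype (1.012 to 2.17), and in WMI these neighbours did not separate. Among excitatory neurons, cluster 8 (21.9 and 18.2) and upper-layer neurons (14.6 and 17.1) were highest of those with over 100 UMIs, and layer 6 corticothalamic neurons were low at 3.42 and 4.49. Neuroblast-like cells stood at 31.2 and 32.5 on 9 and 16 UMIs, and Cajal-Retzius-like cells, early neurons of the cortical surface that make reelin, held 2 UMIs in 6 cells (50.3 CPM) and 6 in 27 (44.3 CPM).

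**Figure D5:**
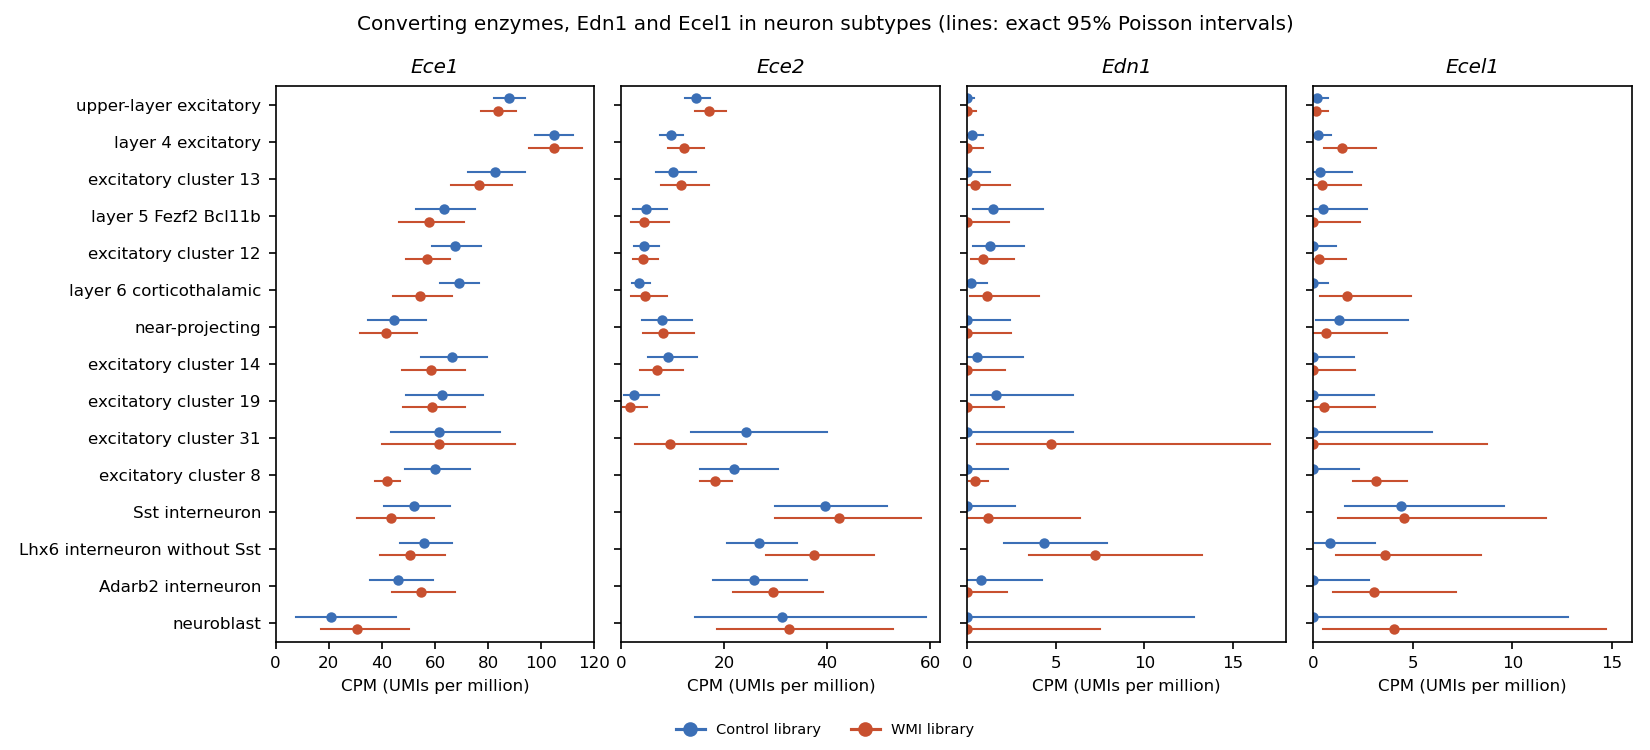
Levels of *Ece1*, *Ece2*, *Edn1* and *Ecel1* (x axis, CPM, linear, with its own scale in each panel) in the neuron subtypes and unnamed excitatory clusters (y axis) of the Control and the WMI library, with exact 95% Poisson intervals as lines. *Ece1* was highest in layer 4 neurons (104.6 and 104.9), *Ece2* in *Sst* interneurons (39.6 and 42.3), and *Edn1* in *Lhx6* interneurons without *Sst* (4.30 and 7.21) among the rows plotted with over 3 UMIs in a library. Striatal projection neuron-like and Cajal-Retzius-like cells are not plotted.

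Outside neurons, the *Ece2* levels lay below those of inhibitory neurons in both libraries, but not all lay below those of excitatory neurons. Cycling cells stood at 15.4 (3 UMIs) and 14.5 (7 UMIs). OPC-like cells stood at 16.03 (25 UMIs) and 11.7 (26 UMIs), above pre-OL-like cells in Control (2.98-fold, 1.12 to 10.0) but not beyond counting error in WMI (1.49-fold, 0.792 to 2.84). Astrocyte-like cells had 6.86 (17 UMIs) and 12.8 (42 UMIs), a log2 ratio of 0.89 (0.05 to 1.80). The microglia-like background was 2.02 (3 UMIs) and 7.05 (34 UMIs), 3.49-fold higher in WMI (1.10 to 17.8), a log2 ratio of 1.80. It rested on fewer UMIs than the 50 set for the limit. The barcodes under 1000 UMIs stood at 20.3 (11 UMIs) and 41.0 (6 UMIs), and the part of this background in the astrocyte ratio was not tested. The log2 ratio was 0.27 (0.07 to 0.48) in excitatory and 0.23 (-0.11 to 0.58) in inhibitory neurons.

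*Ecel1* (chromosome 1, 87147655 to 87156521, minus strand) encodes an endopeptidase of the same family that is also called DINE, for damage-induced neuronal endopeptidase, is known from neurons after nerve injury, and is not known to cut endothelins. Its 115 UMIs lay in 20 Control and 81 WMI cells. Cajal-Retzius-like cells held 10 UMIs in 8 of 27 WMI cells, 73.9 CPM (35.4 to 135.9), and none in 6 Control cells, where 3 would have given 75.4, so that no difference could be detected there. Striatal projection neuron-like cells, 5 in Control and 147 in WMI, held 0 and 10 UMIs. Cluster 8 held none in 142 Control cells and 23 in 16 of 572 WMI cells, at least 1.67-fold higher with the Control count set to 3 UMIs and the WMI count taken as it is, while the exact interval of the ratio, which covers the error of both counts, began at 1.25-fold.

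In excitatory neurons *Ecel1* had 8 UMIs in 3285 cells of Control and 37 in 2805 of WMI, 0.212 and 1.10 CPM, a log2 ratio of 2.38 (1.26 to 3.70) on fewer UMIs than the 50 set for the fold limit. Cluster 8, with 142 Control and 572 WMI cells, had 0 and 23 of these UMIs, layer 4 neurons 2 and 6, and upper-layer neurons 2 and 1. The excitatory ratio was not weighted by cluster, and the part of cluster 8 in it was not tested. Inhibitory neurons held 8 and 14 UMIs (1.598 and 3.60 CPM), and *Sst* interneurons had the same level in both libraries within counting error, 4.40 (6 UMIs) and 4.57 (4 UMIs). *Adarb2* interneurons held 0 and 5. Microglia-like cells, the background, had 1 and 7 UMIs, 0.673 and 1.45 CPM, and the level of the whole excitatory class was not above theirs in either library. Cluster 8 taken alone stood at 3.13 CPM in WMI. The barcodes under 1000 UMIs held 1 *Ecel1* UMI in each library, 1.84 CPM in Control (0.05 to 10.3) and 6.83 in WMI (0.17 to 38.0). Microglia-like cells had median depths of 3209 and 2943.5 UMIs, against 10397 and 10055 in excitatory neurons. The part of depth in this comparison was not tested. After thinning, 0% of Control and 0.107% of WMI excitatory neurons kept a UMI against 0.233% and 0.283% of microglia-like cells, and without thinning 0.244% and 1.07% against 0.233% and 0.495%.

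The genes whose pattern over 18 cell classes and neuron subtypes was most like that of a member were taken by Pearson's r of log2(CPM + 1), among 17780 genes. These units share libraries and depth, and the r values are descriptions. For *Ednrb* they were *Sall3* (0.92), *Gm33680* (0.91) and *Tril* (0.90), and for *Ednra* *BC067074*, *Tango6* and *Jtb* (0.86, 0.86 and 0.84). For *Ece1* they were *Ptpn3*, *Gm20700* and *Gm44040* (0.85, 0.83 and 0.82), for *Ece2* *AI504432*, *Gm49782* and *Cdh4* (0.84, 0.83 and 0.83), and for *Ecel1* *Tex15*, *Gm48860* and *Gm4681* (0.93, 0.90 and 0.90). Between members, r was 0.51 for the 2 receptors and 0.67 for *Ece2* and *Ecel1*, and it was -0.15 for *Ece1* and *Ece2*. The units were not weighted by size. The Cajal-Retzius-like unit (6 Control and 27 WMI cells) rested on 8 *Ece2* and 10 *Ecel1* UMIs, and its part in their r values was not tested.

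A list of 17 further genes of endothelin signalling (other peptidases of the family, the G protein and phospholipase chain, kinases, arrestins and regulators of G protein signalling) was read by the same limit. Of its members with enough UMIs, 0 of 8 were past 2-fold in OPC-like cells, 0 of 7 in pre-OL-like cells, 0 of 9 in astrocyte-like cells and 0 of 11 in inhibitory neurons, beside the shares of all genes given above. The count was 0 of 4 in cycling cells (6.95% of all genes judged), 0 of 4 in neuroblast-like cells (3.88%) and 0 of 2 in Cajal-Retzius-like cells (9.65%). In mature OL-like cells 1 of 3 was lower in WMI, *Plcb4* at 56.7 and 23.7 CPM (7.17% of all genes judged), and in microglia-like cells 1 of 9 was lower, *Rgs4* at 35.0 and 13.5. In the vascular and fibroblast class 1 of 5 was higher, *Rgs5* with 7 and 99 UMIs, a pericyte gene in a class with 2 and 13 pericyte-like cells. In excitatory neurons 2 of 14 were higher, *Mmel1* (31 and 63 UMIs) and *Rgs5* (36 and 76 UMIs). The same 2 of 14 were higher over all kept cells, *Mmel1* with 42 and 83 UMIs and *Rgs5* with 89 and 238. In striatal projection neuron-like cells 1 of 5 was higher, *Grk5* at 49.8 and 102.4 CPM on 2 and 145 UMIs, with a log2 ratio of 1.04 (-0.84 to 4.10).

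The G protein chain itself was carried by 4 abundant genes of that list. *Gnaq*, the G protein subunit that couples both receptors to phospholipase C, had a log2 ratio of 0.26 over all kept cells, 0.24 in OPC-like and 0.40 (0.27 to 0.52) in astrocyte-like cells. *Plcb1*, a phospholipase C gene, had -0.22 over all cells and -0.79 (-0.85 to -0.72) in astrocyte-like cells, at 1738 and 1007 CPM. *Plcb4*, another phospholipase C gene, had -0.33 and *Grk5*, a kinase that acts on activated receptors, 0.27 over all cells. None of these 4 passed the 2-fold limit in astrocyte-like cells.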

How the data were processed

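The deposited tables hold raw UMI counts for each barcode. Their header names Cell Ranger 6.1.1 as the authors' counting tool, and the values were not normalized. The submitters' notes name Seurat and mm9, but 100% of the 55450 gene identifiers matched GENCODE M21 on GRCm38, which gave the positions. Control had 66470806 UMIs in 10288 barcodes and WMI 60568639 in 8354. Kept barcodes needed at least 1000 UMIs and 500 genes and at most 10% mitochondrial UMIs, and those that failed (748 and 241) and predicted doublets (785 and 542, set by rates of 8.23% and 6.68%) were removed. The libraries shared 36 barcodes. The paper states fewer cells per group than were kept here, and describes several replicates, while 1 library per group was analysed.

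Kept cells were integrated with IntegrateData of Seurat 5.3.0 (R 4.3.3), the study's own method, and cluster resolution was 0.8. The 7 members, the listed pathway genes and mitochondrial, *Xist* and Y-linked genes did not enter the features used. Except for excitatory and inhibitory neurons, a class name needed at least 3 markers and 60% of its list. A marker counted when it reached 25% of the highest cluster, 10% of cells and 3-fold over the lower quartile of clusters. Clusters that met no such list were named excitatory or inhibitory neurons by the summed CPM of marker lists. They needed a minimum sum over a neuron list and at least 2-fold between the excitatory and inhibitory sums. Neuron subtypes within them were named by the marker rule. These thresholds were set after the clusters were seen. Vascular cells were sub-clustered. There a marker counted at 25% of the highest sub-cluster, 10% of cells and 3-fold over the level in cells outside the class. Poisson intervals were used for levels, Clopper-Pearson intervals for shares and conditional binomial intervals for ratios, all at 95% and for counting error only. Shares were taken after thinning each cell to 1000 UMIs. Analyses used Python 3.11.15, scipy 1.17.1 and leidenalg 0.10.2. In data simulated for the astrocyte comparison (10508 genes, 200 of them changed 4-fold), intervals held the true ratio for 95.88% of genes, and 100% of the changed genes and 0.28% of the unchanged were called. The simulated counts held Poisson counting error only, as the intervals assume, and no differences between cells or libraries. These values therefore check the calculation and cannot tell how often real genes are wrongly called.

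All 7 members are named, with the 4 pathway genes of most UMIs, pathway genes past the limit, and the 3 genes most like each member with at least 100 UMIs. The pathway list was *Edn2*, *Kel*, *Mme*, *Mmel1*, *Phex*, *Cma1*, *Gnaq*, *Gna11*, *Plcb1*, *Plcb4*, *Arrb1*, *Arrb2*, *Grk2*, *Grk5*, *Rgs4*, *Rgs5* and *Nos3*. The members and lists were chosen with earlier results of these data known. Alternatives varied the barcode filter, doublets, resolution, integration, depth, weighting, thinning and sex-linked UMIs.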

Additional observations from a re-analysis of the deposited data

How the results depend on the processing

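Of 232 alternative values for 22 class ratios, 228 stayed within the counting interval of the reported value. The exceptions were *Ednrb* in microglia-like cells and *Ece1* in excitatory neurons. The *Ednrb* ratio, reported at 0.73 on the log2 scale, was -0.02 among cells without *Xist* and with a Y-linked UMI. The interval of that value (-0.87 to 0.84) included the reported one. The *Ece1* ratio, reported at -0.27, was -0.15 at a resolution of 0.4 and -0.13 when the libraries were merged without integration. It was -0.11 with WMI cluster levels weighted by the Control clusters. Over all kept cells, the *Ednrb* ratio of 0.62 was 0.48 with the Control makeup of classes and 0.75 without the unnamed clusters, and 26 of 28 such values stayed within the interval. The causes were not tested. Some ratios whose interval included 0 changed sign within it: *Ece1* in microglia-like cells lay between -0.12 and 0.43, *Ednrb* in inhibitory neurons between -0.24 and 0.17 and *Ece2* in OPC-like cells, reported at -0.45, between -0.58 and 0.16. The *Ednra* ratio in astrocyte-like cells lay between 1.23 and 1.52, above 2-fold in all 11 alternatives run. In excitatory neurons, reported just under 2-fold, the *Ednra* ratio lay between 0.831 and 1.005. In the vascular and fibroblast class, also reported just under 2-fold, it lay between 0.605 and 1.385. Whether these 2 classes passed the limit thus depended on the setting. Of 182 alternative shares of cells, 66 moved out of the interval. These alternatives included no thinning and thinning to 3000 UMIs, which leave more UMIs per cell and so raise the expected share by design. Levels moved in 4 of 158 alternatives over classes and in 0 of 126 over neuron subtypes. The percent of a gene's UMIs held by the named class with the most of them moved in 11 of 70 alternatives. The weighting by Control clusters and the ratio relative to the median gene were added after the data were seen. No paired analysis was possible because each group had 1 library, and for the same reason no library could be left out. Depth limits the ligands most, with 72 and 31 UMIs in all.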
